A study of Mus musculus with 6 samples.

Results

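The germline genes described here are Dazl, Stk31, Sycp1, Sycp2, Sycp3, Mael, Asz1, Slc25a31 and Brdt, 9 of the 39017 genes in the deposited count tables. They were found in the tables by their gene symbols. Their RNA was measured by polyA RNA-Seq in 6 libraries of murine embryonic stem cells (mESCs), 2 in each of 3 groups. All cells were of V6.5, a mouse embryonic stem cell line, grown in serum and LIF on irradiated mouse embryonic fibroblasts (feeders). The paper's methods place the harvest after 2 passages of feeders. The untreated and the auxin-treated libraries both came from the Pol II degron line, a clonal line in which both copies of RPB1, the largest subunit of RNA polymerase II (Pol II) and the product of Polr2a, carry mAID-GFP at the C terminus, and OsTIR1 is expressed from Rosa26. OsTIR1 is a plant protein that, once auxin is added, directs mAID fusion proteins to degradation. Both of these groups had received 1 μg/ml doxycycline for 12 h to switch on OsTIR1, and the auxin group then received 500 μM indole-3-acetic acid (auxin) for 6 h. The third group was wild-type V6.5 mESCs with neither the tag nor OsTIR1, for which the labels do not say whether doxycycline was given. Their records also name retinas at the RNA extraction step.

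In mammals, germline genes are expressed while germ cells form and pass through meiosis, and many of them carry CpG-rich promoters. In somatic lineages these promoters become methylated at CpG after implantation, and the genes are then kept silent by the maintenance methyltransferase. In mESCs PRC1.6 and H3K9 methyltransferases hold many of the same promoters at a low level. PRC1.6 is a variant Polycomb complex that reaches DNA through the MGA–MAX and E2F6–DP1 pairs. No methylation was measured in these libraries, so the methylation state of these genes was not tested, and they are described by their RNA alone.

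The 9 genes have different roles. Dazl encodes an RNA-binding protein that germ cells need to license gametogenesis. Sycp1 encodes the transverse filament of the synaptonemal complex, which zips homologous chromosomes together in meiosis, and Sycp2 and Sycp3 encode its axial and lateral elements. Mael and Asz1 act with piRNAs, the small RNAs that hold down transposons in the male germline, and Stk31 encodes a Tudor domain protein of germ cells. Slc25a31 encodes the germ-cell ADP/ATP carrier of the mitochondrial inner membrane. Brdt encodes the testis-specific member of the BET bromodomain family, which is required for spermatid chromatin compaction.

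All 9 genes had an entry in the RefSeq promoter table for GRCm38.p6, whose windows run from 250 bases before to 50 bases after a transcription start, with 10 windows in all since Stk31 has 2. The windows were searched for CACGTG, the palindromic E-box that MGA–MAX binds, and for GGCGGGA on both strands, letters of the E2F6 site. CACGTG stood in the windows of 6 of the 9 genes, namely Brdt, Mael, Slc25a31, Stk31, Sycp1 and Sycp3, against 8.09% of all genes in the table. The 2 windows of Stk31 overlap and hold the same CACGTG, which a count by window takes in both. Counted by window, the share was 7 of 10 against 7.15% of 32851 windows, and against 10.9% of the 14281 windows that hold at least 10 CpG. The number 10 is that of Sycp2, the lowest of the 9 genes, whose window lacks CACGTG. The windows of the 9 genes with CACGTG held 15 to 29 CpG, and no share was taken over windows as rich as these. In the other 4 lists of germ cell genes described below, 17 of 59 genes (28.8%) held CACGTG. The windows of Asz1, Dazl and Sycp2 did not hold these letters. GGCGGGA stood in the windows of Mael, on both strands, and of Slc25a31, against 11.3% of all windows, and both of these windows also held CACGTG, against 1.18% of all windows. A match of letters is not a measurement of binding. The windows of Slc25a31 (chr3:40708621-40708920, plus strand), Mael (chr1:166238695-166238994, minus strand), Sycp3 (chr10:88459337-88459636, plus strand), Dazl (chr17:50293571-50293870, minus strand) and Sycp2 (chr2:178407609-178407908, minus strand) are shown 5′ to 3′ because they hold both motifs, a pair of E-boxes or neither motif. CACGTG and GGCGGGA, the latter on either strand, are in capitals.
Slc25a31: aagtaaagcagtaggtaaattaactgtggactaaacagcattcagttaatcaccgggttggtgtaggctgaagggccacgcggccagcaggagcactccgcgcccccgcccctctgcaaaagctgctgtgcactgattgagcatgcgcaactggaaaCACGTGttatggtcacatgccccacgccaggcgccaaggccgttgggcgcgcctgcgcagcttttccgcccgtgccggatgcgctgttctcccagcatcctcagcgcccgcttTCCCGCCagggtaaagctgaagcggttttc
Mael: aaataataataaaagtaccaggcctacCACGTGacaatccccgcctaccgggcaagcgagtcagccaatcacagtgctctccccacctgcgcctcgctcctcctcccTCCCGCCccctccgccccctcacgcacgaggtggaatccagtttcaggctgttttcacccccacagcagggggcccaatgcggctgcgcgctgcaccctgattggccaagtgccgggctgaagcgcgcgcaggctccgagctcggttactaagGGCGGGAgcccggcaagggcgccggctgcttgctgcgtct
Sycp3: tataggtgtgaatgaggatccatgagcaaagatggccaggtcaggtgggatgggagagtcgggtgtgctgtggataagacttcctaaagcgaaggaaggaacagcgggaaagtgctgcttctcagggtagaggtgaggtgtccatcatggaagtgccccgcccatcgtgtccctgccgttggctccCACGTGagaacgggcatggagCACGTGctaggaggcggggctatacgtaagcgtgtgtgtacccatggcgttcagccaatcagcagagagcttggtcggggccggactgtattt
Dazl: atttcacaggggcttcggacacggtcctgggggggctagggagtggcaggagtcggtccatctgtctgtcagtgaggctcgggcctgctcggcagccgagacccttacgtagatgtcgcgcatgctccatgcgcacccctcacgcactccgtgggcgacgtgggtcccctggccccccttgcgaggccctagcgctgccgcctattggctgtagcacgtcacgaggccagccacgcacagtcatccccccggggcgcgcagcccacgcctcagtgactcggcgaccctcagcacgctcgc
Sycp2: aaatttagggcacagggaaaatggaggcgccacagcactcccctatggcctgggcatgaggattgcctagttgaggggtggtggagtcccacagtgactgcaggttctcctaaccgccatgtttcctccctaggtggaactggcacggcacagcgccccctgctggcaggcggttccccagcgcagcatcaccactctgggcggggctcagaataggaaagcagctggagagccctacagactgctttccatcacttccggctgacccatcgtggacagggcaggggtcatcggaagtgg

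The E-box began 93 bases before the start in Slc25a31, 223 bases before it in Mael, 94 in Sycp1 and 78 in Brdt, and Sycp3 had 1 at 64 and another at 43 bases before its start. The windows were also rich in CpG. They held 10 to 29 CpG, against a median of 7 over all windows. Sycp2 stood at the low end, with 10 CpG and an observed over expected CpG ratio of 0.363, under the median of all windows (0.384). Stk31 stood at the high end, with 29 CpG and a ratio of 0.908 in 1 of its windows, while Dazl, which lacked both motifs, held 28 CpG. These windows thus differ in CpG content as well as in motifs, and none of this was read from the RNA.

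In the mm10 genome with GENCODE vM21 gene models, Dazl lies on chromosome 17 at 50279395-50293636, Stk31 on chromosome 6 at 49395604-49469501 and Asz1 on the same chromosome at 18050964-18109061. Sycp1 lies on chromosome 3 at 102818499-102936100, as does Slc25a31 at 40708855-40726096. Sycp2 lies on chromosome 2 at 178345293-178407685, Mael on chromosome 1 at 166201201-166238747 and Brdt on chromosome 5 at 107331159-107387058. Sycp3, on chromosome 10 at 88459569-88473236, is the only one of the 9 whose exons overlap those of another gene. It shares 660 exon bases with Chpt1, a phospholipid synthesis gene on the opposite strand, and 34.0% of its 100-base stretches occur elsewhere in the gene models. The strand setting of the counting was not given in the sources used here, so the counts of Sycp3 are uncertain. No other gene of the 9 shares exon bases with a neighbour, and the share of 100-base stretches found elsewhere was 1.04% for Sycp1 and 0 for the rest.

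The libraries held between 14094022 and 15358714 counts in all. The pluripotency markers showed mESCs in all groups: Pou5f1, the core pluripotency factor, had 10625 to 13854 counts in every library. Late germ cell markers were scarce. Of 10 spermatid and sperm markers, 6 had at most 3 counts in every library, including Tnp1 and Smcp at 0 in all 6, the highest was Tssk6 with up to 65 counts, and the summed level of the list lay between 2.60 and 5.45 CPM, counts scaled to a common library total. Of 8 oocyte markers, 3 had at most 3 counts in every library, and the summed level lay between 4.18 and 13.9 CPM. Fibroblast markers listed for the feeder cells summed to 173 to 176 CPM in untreated and 194 to 224 CPM in auxin-treated libraries. In wild-type libraries they summed to 137 to 143 CPM. Whether this RNA came from feeder cells was not tested. In a bulk library, fewer cells that express a gene and less RNA per cell cannot be told apart.

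RNA of all 9 germline genes was found in every library, at levels that ranged from near the bottom to the upper part of the tested genes. Levels were compared between genes as CPM per kilobase of exon, with CPM scaled by the TMM factors of the 6 libraries. In the untreated cells Sycp3 had 19.98 CPM per kilobase and stood at percentile 82.4 of 15952 genes, followed by Dazl with 14.2 and Mael with 13.0. Stk31 (7.28) and Sycp1 (6.85) stood somewhat above the median of all these genes (4.94), and Slc25a31 (3.84) stood below it. Brdt had 1.16, Sycp2 0.772 and Asz1 0.270 CPM per kilobase, the last at percentile 6.13. Sycp3, Dazl, Mael, Stk31 and Sycp1 therefore lay above the median gene, and the other genes below it. In wild-type cells Sycp3 and Mael, at 15.5 and 13.1, had the highest levels per length, whereas Dazl stood at percentile 56.2 (75.5 in untreated cells) and Slc25a31 at percentile 28.9 (44.1 in untreated cells).

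**Figure D1:**
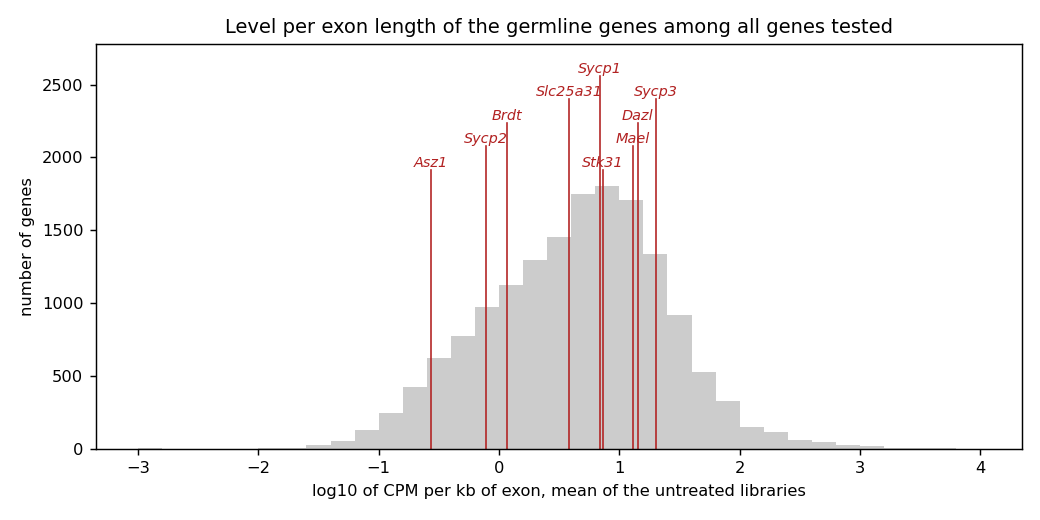
Level of the 9 germline genes (red lines) in the untreated libraries, as log10 of CPM per kilobase of exon (x axis), over a histogram of 15952 tested genes (grey bars, number of genes on the y axis). Asz1 stood lowest at 0.270 CPM per kilobase and Sycp3 highest at 19.98, on either side of the median gene at 4.94; line heights carry no value.

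The levels by library are given next, beside a background in which 30.7% of all genes tested were called lower in wild-type than in untreated cells. For Dazl, the untreated libraries gave 66.3 and 42.4 CPM, the auxin-treated libraries 66.3 and 58.0 CPM, and the wild-type libraries 25.2 and 24.1 CPM. Both wild-type libraries were thus below every degron-line library, while the untreated and auxin-treated ranges overlapped. Stk31 had 27.7 and 19.4 CPM in untreated, 26.6 and 23.4 in auxin-treated and 14.3 and 12.6 in wild-type libraries. Slc25a31 had 9.96 and 6.39, then 9.84 and 8.57, then 3.66 and 2.93 CPM in the same order of groups. These genes thus showed the same picture as Dazl, with overlapping degron-line groups and a separate, lower wild-type pair. The synaptonemal complex genes were not alike. Sycp1 had 28.4 and 20.3 CPM in untreated, 25.4 and 20.7 in auxin-treated and 14.8 and 16.2 in wild-type libraries. Sycp3 had 25.5 and 25.002, then 27.8 and 25.1, then 18.8 and 20.3 CPM. Sycp2 had 5.64 and 3.57 CPM in untreated, 7.77 and 6.19 in auxin-treated and 4.43 and 5.23 in wild-type libraries. For Sycp1 and Sycp3 the wild-type pair lay below both others, but for Sycp2 it lay inside the untreated range and the auxin-treated pair lay above both. The piRNA gene Mael had 22.2 and 22.8 CPM in untreated, 22.4 and 22.0 in auxin-treated and 23.7 and 21.8 in wild-type libraries, so that all its groups overlapped. Asz1 was counted only 7 to 17 times in a library and had 0.9755 and 0.549 CPM in untreated, 1.00 and 1.10 in auxin-treated and 0.563 and 0.488 in wild-type libraries, where the untreated and wild-type ranges overlapped. Brdt had 5.43 and 6.39 CPM in untreated, 5.20 and 4.83 in auxin-treated and 4.36 and 3.98 in wild-type libraries. It was the only one of the 9 whose auxin-treated libraries both lay below both untreated ones.

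**Figure D2:**
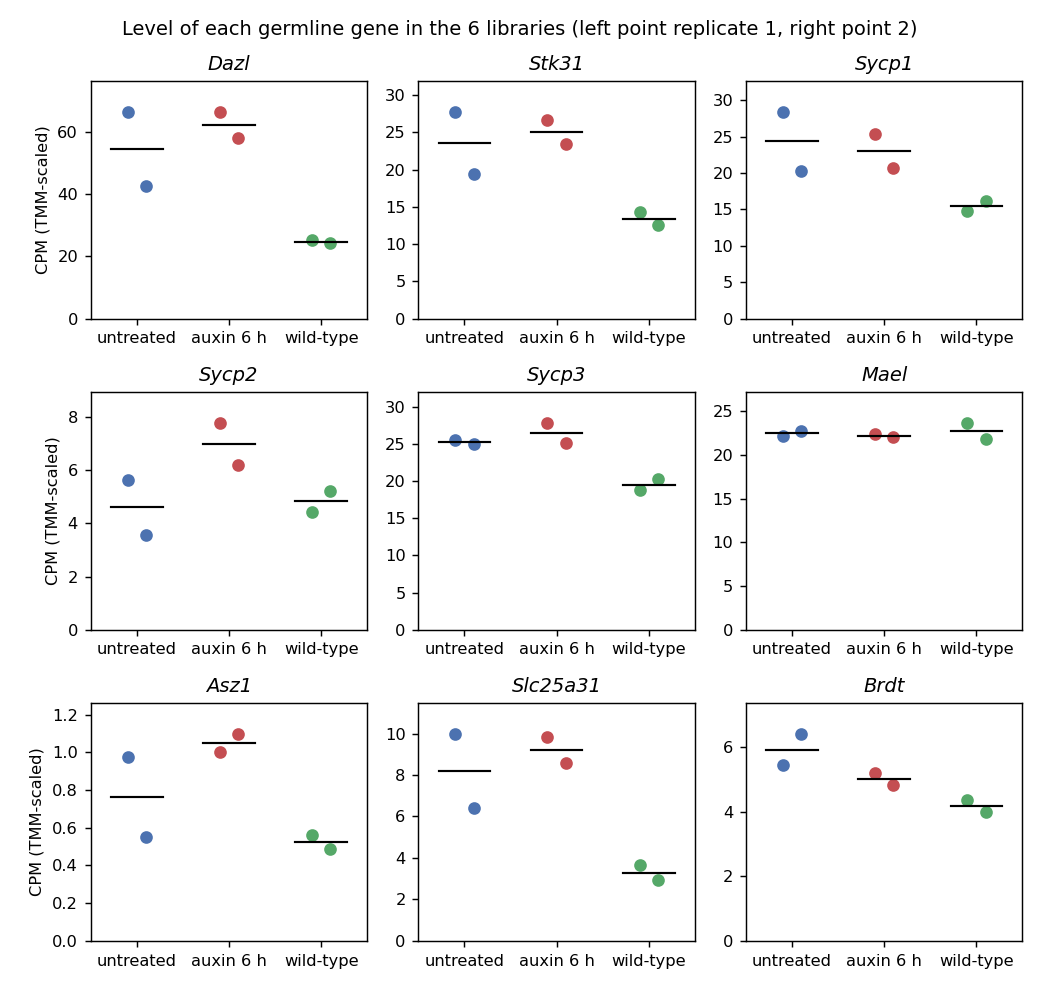
TMM-scaled CPM (y axis, from 0) of each germline gene in the untreated, auxin-treated and wild-type libraries (x axis). Each point is 1 library, with replicate 1 on the left and replicate 2 on the right, and the bar is the mean of the 2; Dazl lay at 25.2 and 24.1 CPM in wild-type against 42.4 to 66.3 CPM in degron-line libraries, whereas Mael lay between 21.8 and 23.7 CPM in all 6.

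To ask whether the germline genes changed when Pol II was degraded for 6 h, the auxin-treated libraries were tested against the untreated libraries over all genes. None of the 9 genes was called at an adjusted p under 0.05 by edgeR's quasi-likelihood test, nor by DESeq2, and 1 of them, Sycp2, had an unadjusted p under 0.05. Of the 16128 genes tested, 413 were called higher and 264 lower, which is 4.2% in either direction. Sycp2 had the largest difference, a log2 fold change of 0.62 (SE 0.23, 95% interval 0.12 to 1.12, edgeR adjusted p = 0.153). Dazl differed by 0.21 (95% interval -0.11 to 0.53, adjusted p = 0.468 by edgeR) and Slc25a31 by 0.19 (95% interval -0.24 to 0.62). Brdt was at -0.22 (95% interval -0.64 to 0.20). Sycp1 (-0.06), Mael (0.00), Sycp3 (0.09) and Stk31 (0.11) lay close to 0, and their 95% intervals reached from -0.38 for Sycp1 to 0.42 for Stk31. For Asz1, at 0.48, the interval of -0.44 to 1.39 was wide, and a rise within it was not detectable at this depth. The median over the 9 genes was 0.11, against 0.00 over all genes tested. RNA measured this way is a share of each library's polyA RNA, so a loss common to all transcripts would not appear in these values. Polr2a, whose protein and not whose mRNA auxin degrades, had 6568 to 6623 counts in untreated and 10396 to 10663 in auxin-treated libraries (log2 fold change 0.57, edgeR adjusted p = 0.00117), so its mRNA does not check the depletion.

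Several of the germline genes set the untreated replicates apart. In untreated replicate 2, the level of Dazl was 1.56-fold below that of replicate 1, and those of Sycp2 (1.58-fold), Slc25a31 (1.56-fold), Stk31 (1.43-fold) and Sycp1 (1.39-fold) were likewise lower. Over the 10864 genes whose mean count in this pair reached 100, 95% differed by at most 1.30-fold. Sycp3 (1.02-fold), Mael (1.03-fold) and Brdt (1.18-fold, with replicate 2 higher) lay inside that range. In the auxin-treated pair the largest difference among the 9 was 1.26-fold, for Sycp2, and in the wild-type pair 1.25-fold, for Slc25a31, with 95% of genes within 1.21-fold and 1.199-fold. Without untreated replicate 1, 4 of the 9 genes were called higher after auxin by edgeR, namely Dazl at 0.56 (adjusted p = 1.19e-07), Sycp2 at 0.98 (adjusted p = 0.000828), Stk31 at 0.38 (adjusted p = 0.0166) and Slc25a31 at 0.54 (adjusted p = 0.0357). The number of all genes called higher in that fit was 1396. Without untreated replicate 2 none of the 9 was called, and Dazl, Stk31 and Slc25a31 stood at -0.08, -0.13 and -0.10. With 1 library left in the group, that library is assumed to vary like the others. The direction of Dazl, Stk31 and Slc25a31 after auxin thus depended on which untreated library was used, whereas Sycp2 stayed above 0.

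**Figure D3:**
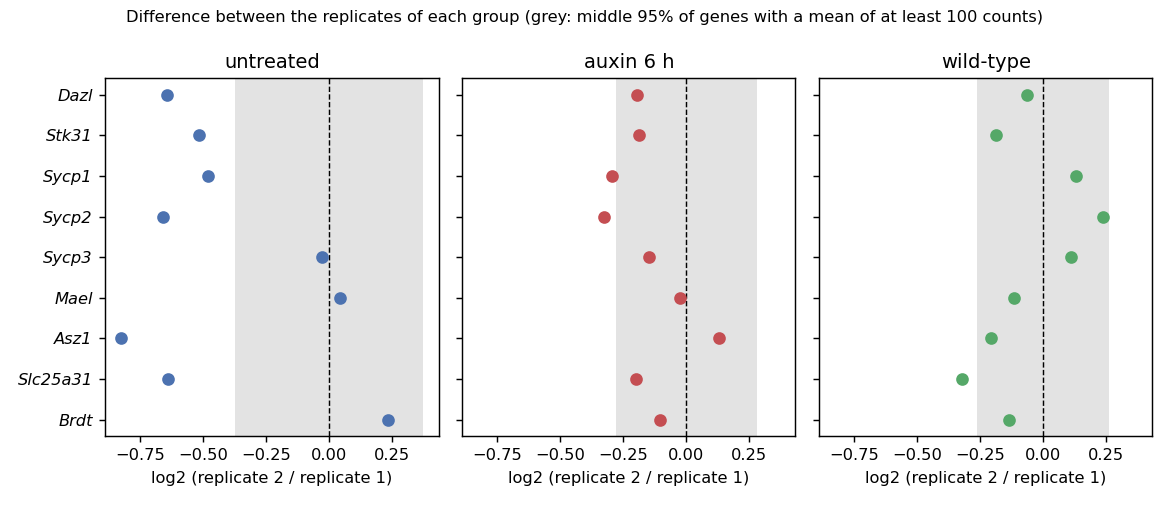
Log2 of replicate 2 over replicate 1 (x axis) for each germline gene in the untreated, auxin-treated and wild-type pairs, with the range holding 95% of genes whose mean count reached 100 in grey. Dazl, Stk31, Sycp1, Sycp2, Slc25a31 and Asz1 lay outside the grey range in the untreated pair; Asz1 and Brdt, and in some groups Sycp2 and Slc25a31, had fewer counts than the genes behind that range.

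Wild-type cells were set against untreated degron cells to compare the engineered line with V6.5 cells that carry neither change. Of the 8 germline genes that passed the filter on low counts, 6 were called lower in wild-type cells and 0 higher by edgeR, and Asz1 was not tested. Here the background is wide: of 15778 genes tested, 30.7% were called lower and 29.9% higher. The median log2 fold change of the 8 genes was -0.59, against -0.01 over all genes tested. Slc25a31 was 2.49-fold lower (log2 fold change -1.32, SE 0.25, edgeR adjusted p = 0.000889). Dazl was 2.21-fold lower (log2 fold change -1.15, SE 0.16, adjusted p = 0.000102 by edgeR), from 54.4 ± 16.8 CPM in untreated to 24.7 ± 0.76 CPM in wild-type cells (SD, n = 2 in each). Stk31 was 1.76-fold lower (-0.82, SE 0.16, edgeR adjusted p = 0.00101) and Sycp1 1.58-fold lower (-0.66, SE 0.15, edgeR adjusted p = 0.00246). All 4 of these genes were lower in untreated replicate 2 than in replicate 1. Without untreated replicate 1 they were still called by edgeR, at -0.96 for Slc25a31, -0.79 for Dazl, -0.54 for Stk31 and -0.40 for Sycp1. Sycp3 was 1.30-fold lower (-0.38, SE 0.10, edgeR adjusted p = 0.00545). Chpt1, its neighbour on the opposite strand, was not called in either comparison (0.03 in wild-type, adjusted p = 0.829, and 0.15 after auxin, adjusted p = 0.571, by edgeR). Brdt was 1.42-fold lower and close to the threshold (-0.51, SE 0.21, edgeR adjusted p = 0.0496). Sycp3 and Brdt were not called by DESeq2, with an adjusted p of 0.0682 and 0.246. Mael (0.01, 95% interval -0.20 to 0.22) and Sycp2 (0.06, 95% interval -0.48 to 0.61) were not called. The interval of Mael leaves out changes of the size seen for Stk31 or Dazl, whereas that of Sycp2 reaches -0.48 and so includes the change of Sycp3.

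**Figure D4:**
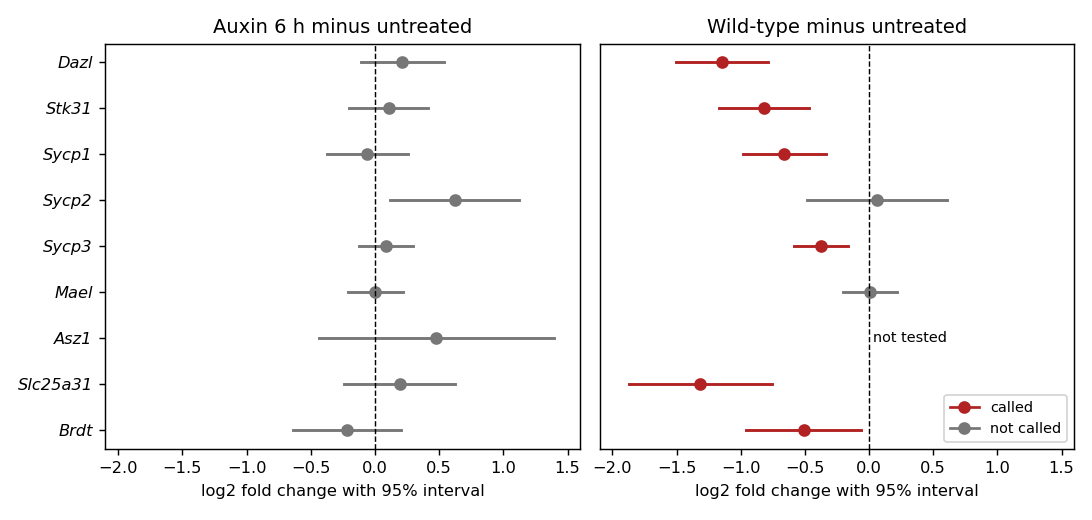
Log2 fold change with 95% interval (x axis) of each germline gene after 6 h of auxin (left) and in wild-type cells (right), both against the same untreated libraries, from edgeR. Called genes are red; none is called after auxin, and 6 lie below 0 in wild-type cells, from -0.38 for Sycp3 to -1.32 for Slc25a31.

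Other features of the wild-type libraries differed from the untreated libraries as well. All 13 mitochondrial mRNAs were called higher in wild-type cells, and their summed level was 15567 to 15914 CPM against 3353 to 4023 CPM in untreated cells. Scaling the libraries to these mRNAs in place of TMM moved the median of all genes by -2.09, and fold changes are therefore given relative to the typical gene. Relative to the median under that scaling, Dazl stood at -1.17, Slc25a31 at -1.32 and Mael at 0.02, much as under TMM. Of the 10 pluripotency markers, 7 were called higher and 1 lower in wild-type cells, and their summed level was 7556 to 7647 CPM against 4360 to 4982 CPM. Of 8 feeder markers tested, 2 were called higher and 4 lower. Counts within this list reached 1413 in a library, while Lum and Dcn, fibroblast matrix genes, had at most 4 counts in any library. The part of feeder cells, mitochondrial RNA or the extraction named in the records in these differences was not tested. Tag, OsTIR1, clone and library table change together between these groups. Doxycycline may change with them, since both degron-line groups received it and the labels do not give it for wild-type cells. These factors cannot be told apart.

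Germ cell genes of related function were read from lists that leave out the 9 genes. After auxin, edgeR called none of 10 genes of the meiotic axis and synaptonemal complex (0 at an unadjusted p under 0.05, 0 by DESeq2), and none of 18 genes of the piRNA pathway and germ granule (1 at an unadjusted p under 0.05, 0 by DESeq2). Of 18 meiotic recombination genes, 1 was called lower, Ccdc36, which helps to start DNA breaks in meiosis (log2 fold change -0.57, edgeR adjusted p = 0.0400), and 5 had an unadjusted p under 0.05. Of 19 germ cell regulators, 2 were called lower, the transcription factor gene Tfap2c (-0.61, edgeR adjusted p = 0.00499) and Dppa3 (-0.46, edgeR adjusted p = 0.0442), a maternal factor also expressed in mESCs, and 4 had an unadjusted p under 0.05. Among all 16128 genes tested, edgeR called 413 higher and 264 lower, which is 4.2% in either direction. An unadjusted p under 0.05 was found for 3245 of them. Pluripotency markers were lower in the same libraries: 4 of 10 were called lower and 0 higher after auxin, by edgeR and by DESeq2, and their summed level was 3652 to 3918 CPM against 4360 to 4982 CPM in untreated cells. Their part in the values of Tfap2c and Dppa3 was not tested. DESeq2 called 1 gene lower among the regulators and 0 among the recombination genes. The 4 medians lay between -0.04 and 0.06.

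In wild-type cells genes of these lists were called in both directions on the TMM scale, as were all genes tested, of which 29.9% were called higher and 30.7% lower. The shares called higher among the recombination genes, the piRNA genes and the germ cell regulators were near these. So was the share of the piRNA genes called lower. These shares are no result about those lists. Of the 10 meiotic axis and synaptonemal complex genes, 6 were called higher and 2 lower, with a median of 0.36, beside -0.59 for the 8 tested germline genes. The cohesin genes of meiosis Smc1b (0.78), Rec8 (0.70) and Stag3 (0.36) were higher, as was the axis gene Hormad1 (0.40), whereas Syce1, a central element gene, was lower (-0.90). Of 18 recombination genes, 6 were called higher and 1 lower. Meiob (2.11), Tex15 (0.70) and Psmc3ip (0.30), which act in strand exchange or double-strand break repair, were higher and Ccdc36 was lower (-0.98). Of the 17 piRNA and germ granule genes tested, 6 were called higher and 6 lower. The helicase genes Mov10l1 (1.12) and Ddx4 (0.63) and the Tudor gene Tdrd12 (0.83) were higher, and Ddx25 (-1.26), a spermatid helicase gene, and Fkbp6 (-1.01) were lower. Among 19 germ cell regulators, 7 were called higher and 3 lower. Taf7l, which encodes a germ cell variant of a TFIID subunit, was lower (-2.37), with 292 to 406 counts in untreated and 65 to 69 in wild-type libraries. Stra8, the retinoic acid target that opens the meiotic programme, was lower as well (-1.19), while Prdm1 (2.41), a primordial germ cell regulator, and Tuba3a (0.94) were higher. Tex101, a spermatocyte surface protein gene, had 10 to 21 counts in every library and was not called in either comparison. By DESeq2 the counts higher and lower were 3 and 1 for the meiotic axis, 2 and 1 for recombination, 3 and 5 for the piRNA pathway and 6 and 2 for the regulators. With the mitochondrial scaling 0 genes of these lists, or of the lists of repressors and DNA methylation genes, were called higher in wild-type cells, so these directions hold relative to the typical gene only.

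**Figure D5:**
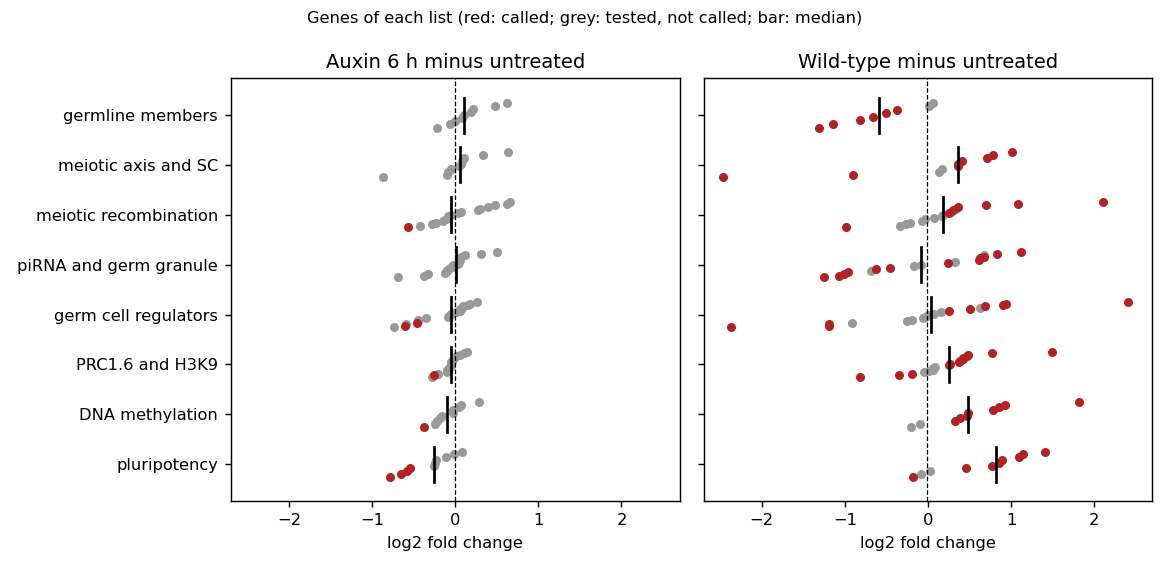
Log2 fold change (x axis) of the genes of each list after auxin (left) and in wild-type cells (right); each point is 1 tested gene, red where called by edgeR and grey where not, and the bar is the median of the list. In wild-type cells the median of the germline genes was -0.59 and that of the DNA methylation list 0.48 (TMM scale). With mitochondrial scaling 0 genes of either list were called higher. The DNA methylation list also holds demethylation genes such as Tet1.

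The genes known to hold germline promoters silent were expressed in all groups. Mga, the PRC1.6 subunit that binds the E-box, had 4396 to 5922 counts per library. It did not pass the test after auxin (-0.21, edgeR adjusted p = 0.106) and was higher in wild-type cells (0.25, edgeR adjusted p = 0.00286). E2f6, its partner subunit at E2F sites, had 483 to 674 counts and was lower in wild-type cells (-0.35, edgeR adjusted p = 0.00656), and Pcgf6, the Polycomb subunit that defines PRC1.6, was not called in either comparison (-0.08 after auxin, 0.06 in wild-type). Of 18 genes of PRC1.6 and H3K9 methylation, 10 were called higher and 3 lower in wild-type cells, where 29.9% of all genes tested were called higher and 30.7% lower. Cbx3 (1.49), a reader of H3K9 methylation, Ehmt1 (0.48) and Ehmt2 (0.39), which methylate H3K9, and Wdr5 (0.46) were higher. After auxin 1 of the 18 was called, Rybp, lower by edgeR (-0.26, adjusted p = 0.0476) and not by DESeq2. By edgeR 4.2% of all genes tested after auxin were called in either direction.

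Of the 10 genes of the DNA methylation machinery, 8 were called higher in wild-type cells on the TMM scale and 0 lower by edgeR, by DESeq2 and by edgeR without untreated replicate 1, with a median of 0.48, where 29.9% of all genes tested were called higher. Without untreated replicate 2 the count was 8 higher and 2 lower. The list also holds Tet1, Tet2, Tet3 and Tdg, which act in demethylation, so its median does not measure a capacity to methylate. The maintenance methyltransferase Dnmt1 (0.48), its cofactor Uhrf1 (0.85), and the de novo methyltransferases Dnmt3a (0.38) and Dnmt3b (0.47) were all higher. Tet1, which oxidises methylcytosine, had 4439 and 4644 counts in untreated, 3788 and 3747 in auxin-treated and 15289 and 16429 in wild-type libraries, a log2 fold change of 1.81 in wild-type cells. Tet2 (0.79) and Zfp57 (0.93), which guards imprints, were higher too, while Dnmt3l, the cofactor of de novo methylation, was not called (-0.10). After auxin, Tet1 was the only gene of this list called (-0.37, edgeR adjusted p = 0.00888), and Dnmt1 had -0.22 (edgeR adjusted p = 0.0859). The share of all genes tested that edgeR called after auxin was 4.2% in either direction.

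Slc25a31 and Brdt have somatic relatives that were measured alongside. Slc25a4 and Slc25a5, the ADP/ATP carriers of somatic cells, had 4484 to 6461 counts in every library. In wild-type cells Slc25a4 was lower (-0.32, edgeR adjusted p = 0.000550) and Slc25a5 higher (0.43, edgeR adjusted p = 0.000229), against -1.32 for Slc25a31. Of the BET genes, Brd3 was higher in wild-type cells (0.67) and Brd2 (0.11) was not called, against -0.51 for Brdt. After auxin Slc25a4 (0.02), Slc25a5 (-0.06), Brd2 (-0.14) and Brd3 (0.11) did not pass edgeR's test.

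Across the 6 libraries, the genes most like the mean profile of the 9 germline genes were Zfp280c, Vav3, Ecscr, BB287469 and Iqsec2. Likeness was Pearson's r of log2(CPM + 1) with the mean standardised profile, and it was 0.999 for Zfp280c among 15512 genes compared. With 6 libraries in 3 pairs such values are common, and 714 genes had r over 0.95, so the list describes these libraries only. The 9 genes did not all follow their mean profile, which includes them. Their r with it was -0.21 for Mael, 0.55 for Sycp2 and 0.65 for Brdt, and from 0.87 for Asz1 to 0.99 for Slc25a31 among the rest. Zfp280c, a zinc finger gene, had 488 and 431 counts in untreated, 561 and 496 in auxin-treated and 355 and 339 in wild-type libraries. Vav3 had 60 and 36, then 71 and 51, then 17 and 13 counts. Like Dazl, both were lower in untreated replicate 2 than in replicate 1 and lowest in wild-type cells.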

How the data were processed

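PolyA RNA was sequenced as paired 150-base reads. The authors aligned them to mm10 with HISAT2 2.1.0 and counted them per GENCODE gene with salmon and htseq-count; the release and strand setting were not given in the sources used here. The authors deposited whole-number counts, not normalized, in a table of the degron libraries and a table of the wild-type libraries, which were joined by gene ID. Their own fold changes and p-values were not used, nor were 2 columns labelled as a knockout.

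Library totals were 14094022 to 15358714 counts, so that genes with few counts, such as Asz1, are measured poorly. Labels give replicate numbers only, so p-values measure the spread between these samples. Each comparison was fitted on its own 4 libraries with edgeR 4.0.16 (R 4.3.3; TMM, filterByExpr with a minimum count of 10, glmQLFit, glmQLFTest, Benjamini-Hochberg over all genes tested), and genes were called at an adjusted p under 0.05. Both comparisons share the untreated libraries and were not set against each other. Tested on simulated data first, the fit had as alternatives DESeq2 1.42.0, other scalings, filters and designs, and each library left out. CPM were scaled by TMM over the 6 libraries. Exon lengths came from GENCODE vM21, and promoter windows from RefSeq.

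The 9 genes and the gene lists were chosen with earlier results of these data known. Besides the 9, at most 4 called genes with the smallest p per list and comparison were named, with a fixed set of known genes, of which 1 is not reported here, and the 5 genes of most similar profile; Chpt1, Tnp1, Smcp, Lum, Dcn, Prm1 and Pou5f1 were named after their values were seen. Of the listed genes, Six6os1 and Atf7ip did not match 1 row each and were left out.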

Additional observations from a re-analysis of the deposited data

How the results depend on the processing

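In the auxin comparison, the log2 fold changes of the 9 germline genes kept direction and side of the threshold in 105 of 125 alternatives. In the wild-type comparison they did so in 95 of 112. A prior count of 2, a small count added before fold changes are taken, was among the alternatives. It cannot change the p-value of this test, so its agreement carries no weight. Genes called higher after auxin (413) were 167 with mitochondrial scaling, 43 with no filter, 246 with at least 10 counts in every library, 1081 with the replicate block and 128 by DESeq2, and 142 to 1396 with a library left out. Genes called lower (264) were 52 with mitochondrial scaling, 12 with no filter, 849 with the block, 108 by DESeq2 and 668 with all 3 groups in one fit, and 35 to 1330 with a library left out. With the replicate block 2 germline genes were called higher after auxin, Dazl (0.23, adjusted p = 0.0274) and Sycp2 (0.63, adjusted p = 0.0294 by edgeR), and 0 to 4 with a library left out. The deviations of same-numbered libraries had an r of 0.07 between untreated and auxin-treated and -0.03 between untreated and wild-type, over 15785 genes. With 1 difference per pair of replicates, this r cannot decide whether the numbers pair the samples. In wild-type cells mitochondrial scaling called 73 genes higher and 15235 lower, and the share of higher calls went from 49.3% to 0.477% (from 61.0% to 76.3% after auxin). After auxin Mael turned to -0.0078 (size factors and DESeq2), -0.16 (mitochondrial scaling), -0.018 (no filter) and -0.016 (all 3 groups), Sycp3 to -0.077 and Stk31 to -0.076 with mitochondrial scaling, and with a library left out Dazl ranged from -0.077 to 0.56, Mael from -0.022 to 0.020, Sycp1 from -0.28 to 0.20, Stk31 from -0.13 to 0.38 and Slc25a31 from -0.10 to 0.54. In wild-type cells Mael turned to -0.049 (library totals), -2.08 (mitochondrial scaling) and -0.0087 (at least 10 counts), and Sycp2 to -2.04 (mitochondrial scaling), with ranges of -0.041 to 0.073 and -0.23 to 0.43 with a library left out. The calls of Sycp1 (no filter, adjusted p = 0.0506), Sycp3 (DESeq2, 0.0682, and without wild-type replicate 1, 0.0802) and Brdt (6 alternatives, 0.0525 to 0.246) were lost by edgeR or DESeq2 as named, so that the 6 genes called lower were 4 to 6 under the alternatives other than mitochondrial scaling, which called all 8 lower, Mael and Sycp2 included. Mitochondrial scaling moved the median of all genes by -2.09, and relative to the median under that scaling Mael stood at 0.02 and Sycp2 at 0.06. The cause of the lost calls and of the changes of sign was not tested. Asz1, with at most 17 counts, could not be tested in wild-type cells under the filter, and with no filter it had -0.53 (edgeR adjusted p = 0.444).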

Other observations

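Of 4 oocyte markers tested after auxin, 1 was called higher by edgeR, Zp1, a zona pellucida gene, with 4 and 1 counts in untreated, 19 and 13 in auxin-treated and 6 and 1 in wild-type libraries (log2 fold change 2.52, adjusted p = 0.0383). DESeq2 called none of the list. Over all genes tested after auxin, edgeR called 4.2% in either direction. The spermatid protamine gene Prm1 had 1 and 2 counts in untreated, 6 and 9 in auxin-treated and 0 in both wild-type libraries, too few to pass the filter. Of the 10 spermatid and sperm markers, 1 was tested after auxin and was not called (log2 fold change -0.06), and 6 had at most 3 counts in every library. Prm1 was named after its values were seen.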
